A study of Mus musculus with 2 samples.

Results

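The vesicular glutamate transporter genes are Slc17a7, Slc17a6 and Slc17a8, which encode VGLUT1, VGLUT2 and VGLUT3. They were chosen by name and not by a rule on measured values, though earlier results of these data were known. They make up 3 of the 21938 protein-coding genes of the GENCODE M21 annotation, with 11 of 93513 annotated start sites. The assay was DNase-seq, in which the nuclease DNase I cuts accessible DNA, on nuclei of left cerebral cortex. Females of the hybrid strain B6CASTF1/J (a C57BL/6J by CAST/EiJ cross), 10 days old and with no treatment named, gave 2 libraries, replicates 1 and 2. Both libraries belong to 1 group, so no test between conditions was possible, and an SD over n = 2 joins animal and technical spread. Coordinates are mm10 (GRCm38), counted from 1.

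These proteins load glutamate, the main excitatory transmitter of the brain, into synaptic vesicles, using the electrical and pH gradient set up by the vesicular proton pump. In the adult forebrain VGLUT1 is the form of most pyramidal neurons of the cortex and hippocampus. VGLUT2 predominates in thalamus and brainstem, whose axons bring the protein into cortex while the nuclei stay behind, and it is also made in some cortical neurons early in life. VGLUT3 is made by smaller populations, among them serotonergic neurons, striatal cholinergic interneurons and some cortical interneurons. An open promoter marks a gene that can be read but is not a measure of its RNA. In whole tissue, fewer cells with an open site and less opening per cell cannot be told apart.

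Each library came with a smaller and a larger peak list of 60071 and 109563 peaks in replicate 1 and of 70563 and 121943 in replicate 2. A peak has 1 deposited signal value, which is a whole multiple of a step of 0.00692 in replicate 1 and 0.00758 in replicate 2. The median signal of the smaller lists was 0.830 in replicate 1 and 0.925 in replicate 2. Across the 50856 peaks shared by the smaller lists, replicate 2 was higher by a median log2 of 0.37 (SD 0.35), so the values of each library are given. Footprints, short stretches inside open regions that are protected from cutting, numbered 212785 in replicate 1 and 224029 in replicate 2.

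Of the cortical excitatory neuron markers checked, 4 of 9 had a peak in both smaller lists within 500 bp of a start site, against 55.2% of all protein-coding genes. They were Emx1, Neurod2, Neurod6 and Cux2, and Fezf2 had none in either. The same held for 2 of 8 interneuron markers (Adarb2 and Pvalb, with Gad1 and Gad2 at 0), 3 of 6 astrocyte markers, 3 of 5 oligodendrocyte lineage markers and 1 of 4 microglial markers. Of the markers of cells known for VGLUT2 outside cortex, 1 of 6 did (Tcf7l2, with a signal of 1.19), and of the serotonergic markers 1 of 4 (Tph2, 0.807). The part of other cell types in the results was not tested.

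Only Slc17a6 among the 3 genes had a promoter peak in both smaller lists, counted within 500 bp of any annotated start site. Of all protein-coding genes, 55.2% did. With the larger lists the count was 2 of 3, against 61.0% of all genes, and it added Slc17a7 through peaks at different start sites in the 2 libraries. Counting the start of the gene model alone, it was 1 of 3 in the smaller lists, against 49.5% of all genes, and 1 of 3 in the larger lists, against 55.1%. Slc17a6 was also the single gene of the 3 in the smaller list of replicate 1, against 56.0% of all genes, and in that of replicate 2, against 59.0%. In at least 1 of the larger lists, all 3 had a peak, against 65.0% of all genes. A base with a listed false discovery rate (FDR, given under 0.05) was present around a start site in each library for 2 of 3, Slc17a6 and Slc17a7 (at different start sites of Slc17a7), against 61.9% of all genes. Within 500 bp of their gene model starts, Slc17a6 had a CpG observed over expected ratio of 0.608, Slc17a7 of 0.522 and Slc17a8 of 0.270, against a median of 0.552 over all genes. Among genes of the same CpG decile, a peak in both smaller lists was present at 74.1% for Slc17a6, 56.3% for Slc17a7 and 32.3% for Slc17a8.

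The cortical gene Slc17a7 (ENSMUSG00000070570.5, chromosome 7, 45163949 to 45176142, plus strand, 12.2 kb) had no peak of either smaller list at any of its 5 start sites or in its body. The strongest distal peak of its window lay upstream of the gene, between genes, centred at -1718 bp from the start. The sequence of that site and of the promoter are shown because the results for this gene turn on them. Both are from the RefSeq GRCm38.p6 assembly, plus strand, and from the C57BL/6J reference, while these mice also carry a CAST/EiJ copy. In the upstream part (chr7:45162110-45162409), capitals mark bases inside a footprint of both libraries. In the promoter (chr7:45163671-45163970, a RefSeq promoter window of 300 bases), capitals mark the bases of a peak found in the larger list of replicate 2 only.
Slc17a7 upstream site: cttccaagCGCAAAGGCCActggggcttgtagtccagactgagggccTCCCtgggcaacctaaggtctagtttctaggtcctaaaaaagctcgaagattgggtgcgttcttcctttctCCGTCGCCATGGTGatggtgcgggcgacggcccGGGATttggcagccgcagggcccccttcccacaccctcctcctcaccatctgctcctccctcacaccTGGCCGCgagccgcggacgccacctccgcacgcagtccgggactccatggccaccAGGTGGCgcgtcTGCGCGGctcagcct
Slc17a7 promoter: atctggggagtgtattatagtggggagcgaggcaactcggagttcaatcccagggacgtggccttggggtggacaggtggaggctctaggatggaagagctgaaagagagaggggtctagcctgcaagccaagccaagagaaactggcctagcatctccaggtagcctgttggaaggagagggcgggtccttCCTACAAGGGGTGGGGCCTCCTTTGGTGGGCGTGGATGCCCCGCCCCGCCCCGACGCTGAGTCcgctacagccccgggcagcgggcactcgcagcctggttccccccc

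At the upstream site, signal was 2.35 (339 steps) at 45162181 to 45162280 in replicate 1 and 4.69 (619 steps) at 45161981 to 45162480 in replicate 2, a mean of 3.52 ± 1.66 (SD, n = 2). It was high in both libraries, above 98.7% of all 33666 shared distal peaks by mean signal. Distal here means farther than 500 bp from every annotated start site. The deposited FDR of the cut rate reached 5.65e-16 in replicate 1 and 1.32e-22 in replicate 2, at the same base, -1677 from the start. At the start itself no base within 500 bp was listed with an FDR under 0.05 in replicate 1, and 46 bases were in replicate 2, with a lowest FDR of 0.0328. Within the upstream site, both libraries thus had their lowest FDR at the same base, and only replicate 2 had listed bases within 500 bp of the gene start.

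The larger lists held 1 peak at a start site of Slc17a7 in each library. In replicate 2 it lay at 45163863 to 45163925, just before the gene model start, with a signal of 0.993 (131 steps). In replicate 1 it lay at 45169649 to 45169731, at the start of internal retained-intron transcripts, with 0.733 (106 steps) and a lowest FDR of 0.0189. The peaks lie in different places, so neither site was listed in both libraries. The signal of 0.993 was above the median of the smaller list of replicate 2, yet the peak was in the larger list only. The internal peak of replicate 1 held the single promoter footprint of the gene, of 23 bp, and replicate 2 had none. Over all genes, the median was 3 promoter footprints in each library.

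Footprints of the upstream site were counted over the 500 bp of the replicate 2 peak. The replicate 1 peak, 100 bp wide, held 2 footprints of its own library. Over the 500 bp, replicate 1 had 9 footprints, of which 6 overlapped one of replicate 2. Replicate 2 had 11, of which 7 overlapped one of replicate 1. Together they marked 7 blocks and 55 bases protected in both libraries. The widest block, CCGTCGCCATGGTG, runs from -1721 to -1708, and the next, CGCAAAGGCCA, from -1831 to -1821. A search for 19 motifs on both strands found the CTCF letters (a pattern of 12 positions, here CCACCAGGTGGC) once, at position 269 of the printed sequence, reaching into the shared block AGGTGGC. Of 200 bp windows at shared distal peaks, 21.5% hold these letters. CTCF is a zinc-finger protein that organises chromatin loops. The letters CANNTG of the E-box, which basic helix-loop-helix factors such as the neuronal NeuroD proteins bind, came at positions 198, 215 and 273, the last overlapping the CTCF match, and 74.4% of the windows hold them. The letters CCAAT, in 24.6% of windows, came at position 97, and the T-box letters AGGTGTG, in 2.43%, at 213, overlapping an E-box. The printed stretch is longer than these windows. The promoter held the Sp/KLF letters GGGCGG 3 times, at -70, -18 and -13 from the RefSeq start, the last 2 inside the peak of replicate 2. Of 32851 RefSeq promoters, 35.7% hold GGGCGG. A match describes the letters only, and no match says only that these letters are not in the window.

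**Figure D1:**
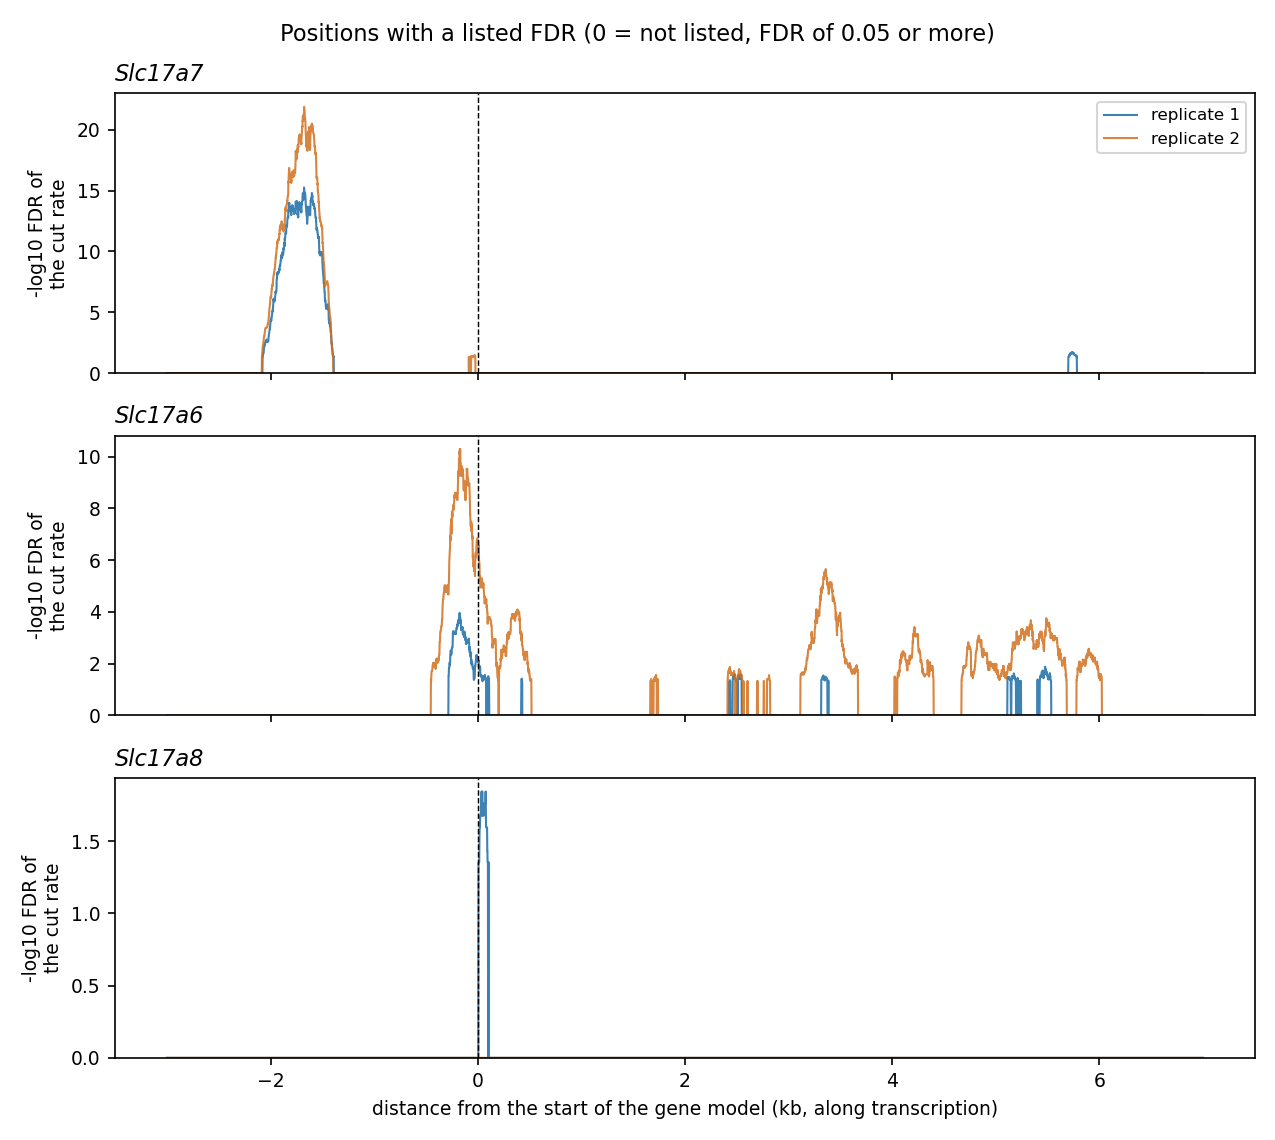
Significance of the cut rate (-log10 of the deposited FDR, y axis) against distance from the gene model start (kb along transcription, x axis) for Slc17a7, Slc17a6 and Slc17a8, with a line per library and 0 where no FDR under 0.05 is listed. Within the plotted range, the highest values lie upstream at Slc17a7 (5.65e-16 in replicate 1 and 1.32e-22 in replicate 2), at the start and along the first kilobases at Slc17a6, and, with a lowest FDR of 0.0144 in replicate 1 alone, at the start of Slc17a8. The y axes differ.

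Slc17a7 had 3 shared distal peaks in its body with 50 kb flanks, or 2.67 per 100 kb, against a median of 2 and of 1.45 per 100 kb over all genes. With the larger lists the gene again had 3 and the median was 4, so it was then below the median. At least 1 such peak of the smaller lists was present at 76.3% of all genes. All 3 lay in the flanks. The second (45182281 to 45182520 in replicate 1) had 1.59 in replicate 1 and 3.51 in replicate 2, a mean of 2.55 ± 1.36 (SD, n = 2). It lies between genes, at 18452 bp from the start of Slc17a7 but 1099 bp from that of Pth2, a neuropeptide gene. The next (45198566 to 45198688) is in an intron of the neighbour Ccdc155 and had 0.796 in replicate 1 and 1.15 in replicate 2, a mean of 0.974 ± 0.252. This peak was near the middle of all shared distal peaks, above 55.8% of them, while the upstream site was above 98.7% and the site near Pth2 above 96.3%.

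Both sequences are shown because they differ in composition. The Pth2-side peak (chr7:45182281-45182520, plus strand, GRCm38.p6) is rich in CpG, with an observed over expected ratio of 0.818 and 18 CpG dinucleotides. It holds GGGCGG letters and CCAAT 2 times each, and also CANNTG and the POU letters ATGCNAAT. Of 200 bp windows at shared distal peaks, 8.34% hold GGGCGG, 24.6% CCAAT, 74.4% CANNTG and 3.51% ATGCNAAT. This peak is longer than those windows. The intronic peak (chr7:45198566-45198688, plus strand) has 1 CpG and holds the CTCF letters, GCCCTCTGCTGG on the plus strand, of which bases 79 to 85 of the peak lie inside a footprint of both libraries. It also holds the nuclear receptor letters AGGTCA. Of the same windows, 21.5% hold the CTCF letters and 5.94% AGGTCA. Capitals mark bases inside a footprint of both libraries.
Slc17a7 downstream site near Pth2: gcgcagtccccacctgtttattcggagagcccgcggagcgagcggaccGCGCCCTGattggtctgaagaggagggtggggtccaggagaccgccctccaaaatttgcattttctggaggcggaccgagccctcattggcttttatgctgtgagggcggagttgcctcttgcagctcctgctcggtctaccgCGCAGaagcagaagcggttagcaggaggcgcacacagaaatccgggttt
Slc17a7 downstream site in Ccdc155: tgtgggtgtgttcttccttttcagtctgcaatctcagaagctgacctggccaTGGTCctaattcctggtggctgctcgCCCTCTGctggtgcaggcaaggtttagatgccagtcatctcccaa

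The window around Slc17a7 is dense in genes, and 6 more shared peaks lay at start sites of neighbours. The ribosomal protein gene Rpl13a had the highest, with 6.80 in replicate 1 and 9.87 in replicate 2. The pair at Aldh16a1 and Pih1d1, which share a start region, had 3.38 and 2.37 in replicate 1 and 6.41 and 4.12 in replicate 2. The peak at Flt3l, a cytokine gene, had 1.75 in replicate 1 and 2.18 in replicate 2, and that at Ccdc155 had 3.44 and 4.65. The transporter gene thus had no promoter peak of the smaller lists, while these neighbours did. Not all neighbours had one, as no peak of either list lay within 500 bp of a start site of Pth2. All 9 peaks of the smaller list in this window were found in the other library, for replicate 1 and for replicate 2 alike, against 84.7% and 72.1% of all peaks. Of its footprints, 38 of 52 in replicate 1 (73.1%) and 41 of 54 in replicate 2 (75.9%) overlapped one of the other library, against 46.1% and 45.6% of all footprints. Most of them, 36 in replicate 1 and 38 in replicate 2, lay at the start sites of neighbours.

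**Figure D2:**
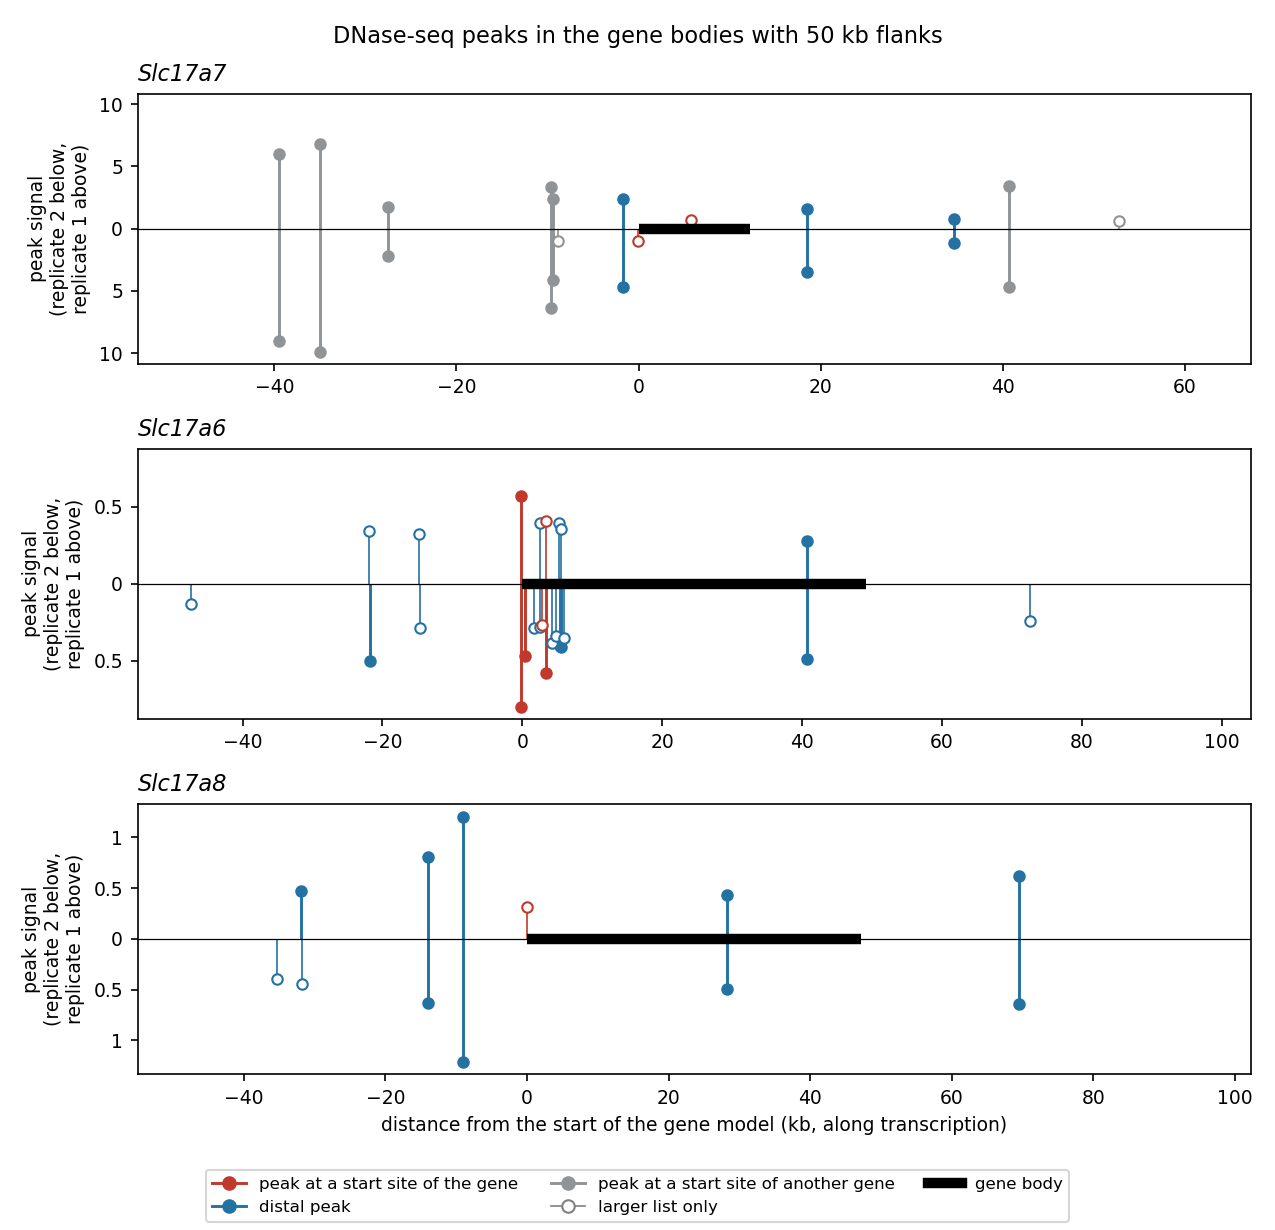
Peaks in the gene body with 50 kb flanks, with signal on the y axis (replicate 1 above 0, replicate 2 below) and distance of the peak centre from the gene model start on the x axis (kb along transcription). Filled points are peaks of the smaller list and open points those of the larger list alone. Slc17a7 has no filled point on its body, Slc17a6 has a cluster at its start and Slc17a8 has scattered distal peaks with signals up to 1.21, and the y axes differ.

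Slc17a6 (ENSMUSG00000030500.6, chromosome 7, 51622006 to 51671119, plus strand, 49.1 kb) was the transporter gene with a promoter peak in the smaller lists of both libraries. Its shared promoter peak lay at 51621821 to 51621890 in replicate 1, with a signal of 0.567 (82 steps), and at 51621821 to 51621880 in replicate 2, with 0.796 (105 steps). The mean of 0.682 ± 0.162 (SD, n = 2) was above that of 3.99% of the 12105 protein-coding genes with such a peak, whose median was 2.89. The promoter was thus open in both libraries, at a signal low for open promoters. The peak lies just upstream of the GENCODE start and covers the RefSeq start, which is at -176 relative to it. RefSeq, unlike GENCODE M21, also annotates a noncoding RNA gene, Gm33136, over these bases. The RefSeq promoter (chr7:51621580-51621879, plus strand, GRCm38.p6) is shown because it holds one shared footprint of the gene whole and the first bases of the other. Capitals mark bases inside a footprint of either library, and the peak begins at base 242.
Slc17a6 promoter: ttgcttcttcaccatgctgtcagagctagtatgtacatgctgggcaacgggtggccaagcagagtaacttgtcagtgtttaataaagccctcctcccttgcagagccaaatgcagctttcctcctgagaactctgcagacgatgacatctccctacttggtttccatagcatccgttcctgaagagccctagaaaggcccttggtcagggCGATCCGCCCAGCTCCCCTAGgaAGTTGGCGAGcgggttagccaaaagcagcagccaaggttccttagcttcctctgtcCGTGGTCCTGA

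Slc17a6 had 3 promoter footprints in replicate 1 and 10 in replicate 2, and 2 of the 3 overlapped one of replicate 2, while 3 of the 10 overlapped one of replicate 1. Over the whole gene window the shares were 37.5% in replicate 1 and 18.2% in replicate 2, below the 46.1% and 45.6% of all footprints. One of the shared footprints, 12 bp wide in replicate 1 and 21 bp wide in replicate 2, overlaps the Sp/KLF letters, GGGCGG on the minus strand, at -36 from the RefSeq start. The footprint of replicate 2 covers all of them and that of replicate 1 all but the outermost. The other spans 23 bp in replicate 1, at 51621869 to 51621891, and is split in replicate 2 into footprints of 12 and 9 bp. At least 1 promoter footprint in both libraries was present at 58.2% of all genes. With tied genes split evenly, the number in replicate 2 stood at percentile 93.8 of all genes and the number in replicate 1 at percentile 52.9. The 3 of replicate 1 equal the median over all genes.

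The libraries differed over the first kilobases of Slc17a6. From 0.5 kb before the start to 6.5 kb after it, replicate 1 had 1 peak in the smaller list and 5 in the larger, and replicate 2 had 5 and 11. Of the 11, 3 overlap each other from a common start, so they form 9 separate stretches. The larger-list peaks covered 679 bases in replicate 1 and 2451 in replicate 2, and footprints numbered 6 and 19. Listed bases tell the same order, with 487 bases of the first 6.5 kb of the body in replicate 1 (7.49%) and 2954 in replicate 2 (45.4%). Within 500 bp of the start, 395 bases were listed in replicate 1 and 952 in replicate 2, with a lowest FDR of 0.000109 and 5.20e-11 at -175 and -173. The bases of lowest FDR were thus 2 apart, while more bases were listed and the lowest FDR was lower in replicate 2. Genome-wide, 1.11% of bases were listed in replicate 1 and 1.27% in replicate 2, a smaller gap than at this gene.

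The smaller-list peaks of Slc17a6 seen in replicate 2 alone were 1 upstream at 51600112 to 51600220 (66 steps) and 4 in the gene. These were at 51622291 to 51622431 in the untranslated exon (0.470), at 51625229 to 51625500 over a coding exon at an internal start site (0.576), and in an intron at 51627284 to 51627360 (0.402) and 51627424 to 51627560 (0.409). Of these 5 peaks, 3 overlapped a peak in the larger list of replicate 1, namely the upstream one (0.339), the one over the coding exon (0.408) and the last one in the intron (0.353). In the larger lists, all 8 peaks of replicate 1 in the gene window were found in replicate 2, and 8 of the 16 of replicate 2, which form 14 separate stretches, in replicate 1. Over all peaks of the larger lists, 79.1% of replicate 1 and 71.0% of replicate 2 were found in the other library. Shared distal peaks numbered 1, or 0.671 per 100 kb, below the median of 2 over all genes. With the larger lists they numbered 6, above the median of 4, so the direction depends on the list. That peak is in an intron, at 51662642 to 51662739 in replicate 1 with a signal of 0.277 and at 51662541 to 51662820 in replicate 2 with 0.485. Its mean of 0.381 ± 0.147 was above 3.01% of shared distal peaks. No other gene's start site in the Slc17a6 window held a peak in either list.

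Slc17a8 (ENSMUSG00000019935.16, chromosome 10, 89574020 to 89621253, minus strand, 47.2 kb) had no promoter peak in either smaller list and no promoter footprint in either library. No promoter footprint in either library was the case at 37.3% of all genes. The larger list of replicate 1 held a peak at its first exon, 89621147 to 89621240, with a signal of 0.311 (45 steps) and a lowest FDR of 0.0144, and replicate 2 had no listed base there. Its second start site, 21438 bp into the gene, had no peak in any list. The main RefSeq promoter (chr10:89621200-89621499, minus strand, GRCm38.p6) is shown for contrast with the other 2 genes, since it holds 7 CpG dinucleotides against 13 at Slc17a7 and 8 at Slc17a6. Capitals mark the bases of the replicate 1 peak. It held no GGGCGG, the E-box letters at -157 and -108 from the RefSeq start, and the T-box letters AGGTGTG at -156, overlapping the first E-box. AGGTGTG is in 5.84% of promoters and CANNTG in 72.3%. The strongest distal peak (chr10:89630181-89630360, minus strand) is printed beside it, with capitals for bases inside a footprint of both libraries.
Slc17a8 promoter: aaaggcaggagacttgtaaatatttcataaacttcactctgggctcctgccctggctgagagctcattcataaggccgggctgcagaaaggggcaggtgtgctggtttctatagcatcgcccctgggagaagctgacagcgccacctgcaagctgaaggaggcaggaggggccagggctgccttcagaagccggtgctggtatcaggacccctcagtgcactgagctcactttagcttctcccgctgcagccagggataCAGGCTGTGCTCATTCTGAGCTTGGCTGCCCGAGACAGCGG
Slc17a8 upstream site: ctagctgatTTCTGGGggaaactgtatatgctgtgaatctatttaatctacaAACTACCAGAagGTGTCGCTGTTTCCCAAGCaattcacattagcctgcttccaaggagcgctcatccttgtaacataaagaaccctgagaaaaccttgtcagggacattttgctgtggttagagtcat

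Away from the promoter, Slc17a8 had 4 shared distal peaks, more than the median of 2, or 2.72 per 100 kb. With the larger lists it had 5, against a median of 4. The strongest lay between genes at -9018 bp from the start. Its signal was 1.20 (174 steps) in replicate 1 and 1.21 (159 steps) in replicate 2, a mean of 1.20 ± 0.00103 (SD, n = 2). It was above 70.0% of shared distal peaks, with a lowest FDR of 5.50e-15 in replicate 1 and 3.81e-13 in replicate 2. The libraries gave nearly the same deposited signal there, though in steps replicate 1 was higher. All of its footprints, 2 in replicate 1 and 3 in replicate 2, had a counterpart in the other library. The widest was 31 bp long in replicate 1, at 89630278 to 89630308, wider than 97.5% of the footprints of that library, and was split into 20 and 10 bp in replicate 2. Of the motifs searched, this peak held the Sox letters ACAANG alone, outside the footprints, and 33.4% of distal windows hold them.

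The other shared peaks of Slc17a8 were weaker. The one at -13988 bp had 0.809 in replicate 1 and 0.629 in replicate 2 (mean 0.719 ± 0.127). The one over a coding exon, 28236 bp into the gene, had 0.436 and 0.493 (mean 0.464 ± 0.0402), and the one beyond the gene end, at 69472 bp, had 0.616 and 0.637 (mean 0.626 ± 0.0149). A peak in an intron of the neighbour Scyl2 was in the smaller list of replicate 1 alone (0.470) and in the larger lists of both. No start site of another gene in this window held a peak.

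The 3 genes differed in how the libraries compared at their shared peaks, against the median log2 of 0.37 for replicate 2 over replicate 1 at all shared peaks. At Slc17a7, 8 of 9 peaks were above that median, from 0.31 to 1.14, the highest being the site near Pth2 and the upstream site at 1.00. At Slc17a6 both peaks were above it, at 0.49 and 0.81. At Slc17a8 none of 4 was, from -0.36 to 0.18. The shared peak at -13988 bp was the only shared peak of the 3 genes with a higher deposited signal in replicate 1. In steps, replicate 1 was higher there (117 against 83) and also at -9018 bp (174 against 159) and 69472 bp (89 against 84). These are values of 2 libraries, and where peaks overlapped more than once the highest of replicate 2 was taken. By geometric mean, the shared distal peaks had a signal of 1.96 at Slc17a7 (1.44 in replicate 1 and 2.67 in replicate 2), 0.366 at Slc17a6 (0.277 and 0.485) and 0.707 at Slc17a8 (0.715 and 0.698), against 0.925 over all shared distal peaks (0.837 and 1.02). The order Slc17a7, Slc17a8, Slc17a6 held in each library. It rests on 3, 4 and 1 shared distal peaks of the smaller lists, so the Slc17a6 value is that of 1 peak.

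**Figure D3:**
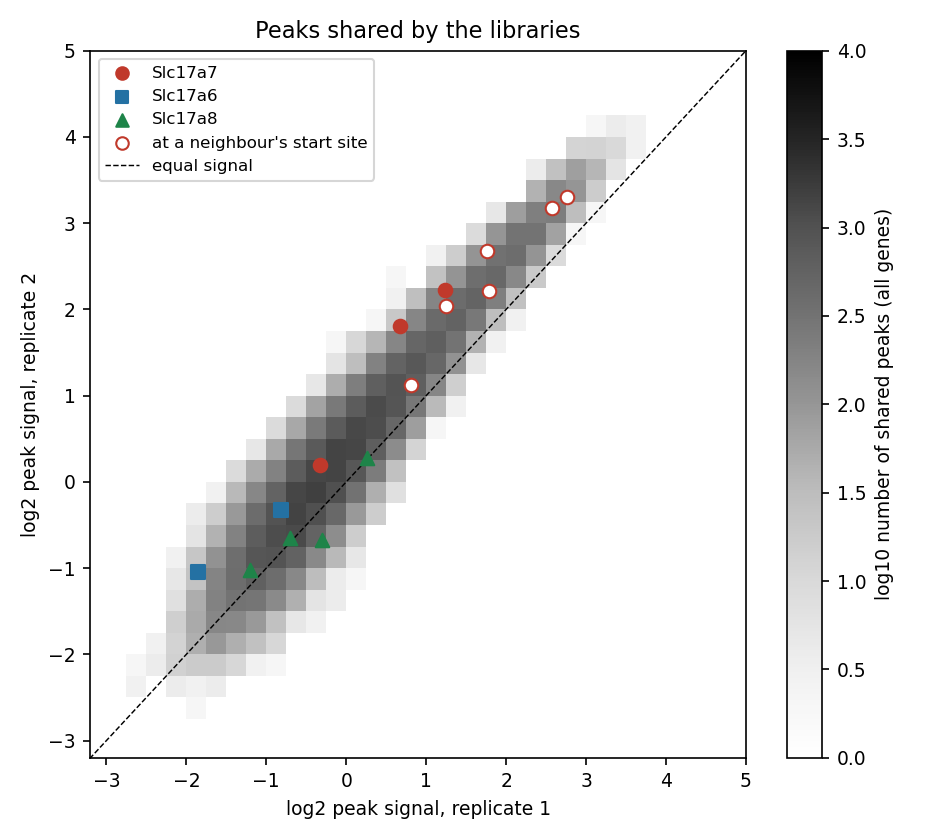
Log2 signal of shared peaks in replicate 1 (x axis) and replicate 2 (y axis) for Slc17a7 (circles, open at start sites of neighbours), Slc17a6 (squares) and Slc17a8 (triangles), over the density of all 50856 shared peaks in grey. The Slc17a7 points lie above the dashed line of equal signal, by log2 0.31 to 1.14, and the Slc17a8 points lie along it, from -0.36 to 0.18.

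Among related genes, peaks in both smaller lists were found at all 16 genes of the vesicular proton pump list, which energises glutamate uptake into vesicles, with a median promoter signal of 4.05. Atp6v0d1 (8.21 ± 2.74, SD, n = 2) and Atp6v1d (6.90 ± 1.5) had the highest. Of the genes of glutamate synthesis and uptake 11 of 15 had such a peak, with a median of 2.57, among them Got1, an aspartate aminotransferase (5.57 ± 1.34). The vesicular glutamate transporters had 1 of 3, with a signal of 0.682, and the other SLC17 genes 1 of 6 (Slc17a5, the lysosomal sialic acid carrier, 3.01 ± 1.01). The list of other vesicular carriers had 3 of 8, namely Sv2a (1.45 ± 0.308), Sv2c (0.888 ± 0.267) and Slc18a1, a monoamine carrier. It counts Sv2a, Sv2b and Sv2c, synaptic vesicle proteins that are not established transmitter carriers. Among the rest of the list, only Slc18a1 had such a peak. Its value of 6.44 ± 3.17 belongs to the same peak as that of its neighbour Atp6v1b2. Slc32a1, the GABA and glycine carrier, had none. These counts describe lists of different kinds of genes beside the background of 55.2%, and no difference between lists was tested.

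**Figure D4:**
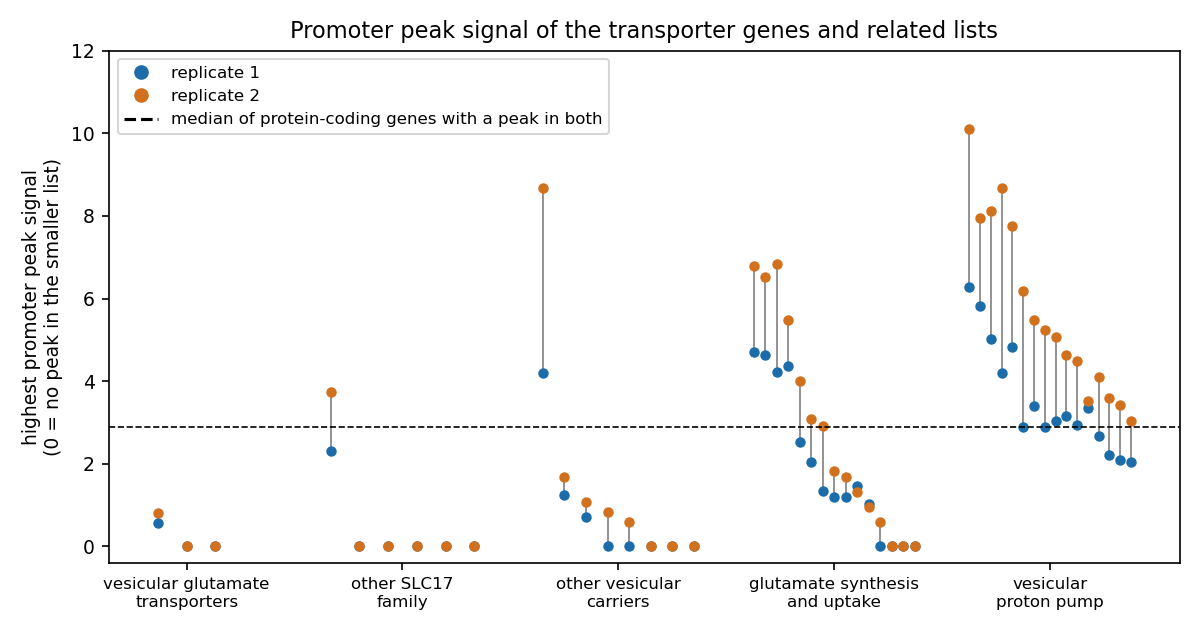
Highest promoter peak signal in the smaller list of each library (y axis, 0 where there is none) for the vesicular glutamate transporter genes and 4 lists of related genes, each gene a pair of joined points ordered by mean within its list. Slc17a6 is the one transporter gene above 0, at 0.567 and 0.796, below the dashed median of 2.89, while all 16 proton pump genes are above 0.

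Likeness was measured as the distance over 6 values (promoter signal of the larger lists, distal peaks and promoter footprints, in each library) among the 45 genes of the related lists. On the log2 scale with 0 for no peak, a signal near 1 has the same value as no peak. The nearness of Slc17a7 (0.733 and 0.993) to genes without a peak is thus built into the measure. Signals under 1 score below no peak on that scale. Among these were Slc17a6 (0.567 and 0.796), Slc1a6 (0.484 and 0.455), Slc18b1 (0.353 and 0.576) and Slc17a8 (0.311 in replicate 1). On that scale the nearest to Slc17a7 were Slc17a3, a family member known for urate and phosphate transport, and Slc38a5, a glutamine transporter (0.648 each, median of all 3.24). Nearest to Slc17a6 were the glutamate uptake carriers Slc1a6 (2.44) and Slc1a1 (2.46, median 3.48). Nearest to Slc17a8 were Slc1a7, an uptake carrier of the retina (1.53), and Slc18b1, a polyamine carrier (1.53, median 3.82). With log2 of the signal plus 1 in place of 0 for no peak, the nearest were Slc18b1 (0.838) and Slc1a6 (0.867) for Slc17a7, Atp6v1e1 (2.22) and Slc1a1 (2.25) for Slc17a6, and Slc1a7 (0.615) and Slc38a5 (0.758) for Slc17a8. The neighbours of Slc17a7 were thus other genes on the second scale, and Slc1a1 and Slc1a7 were named on both. The second scale was chosen after the values were seen.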

How the data were processed

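DNase-seq files of 2 libraries (left cerebral cortex, replicates 1 and 2, 1 group) were used. The peak signal as deposited by the authors is 1 value per peak, a whole multiple of a step in each library (100% within 0.05 steps) on a scale not given in the sources used here. FDR values (p-values after correction) as deposited list positions under 0.05. The labels and headers give the mm10 build; aligner, callers and thresholds are not given in the sources used here. A p-value column of the deposited footprints holds a constant, so footprints were not ranked.

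Genes came from GENCODE M21, sequences from RefSeq GRCm38.p6, whose chromosome lengths hold all peak ends (21 chromosomes). Intervals were joined by at least 1 bp of overlap with numpy 2.4.6 and pandas 2.3.3 (Python 3.11.15), and bases read with samtools 1.23.1; the overlap code was tested on simulated intervals. A promoter is 500 bp around any start site, and promoter signal is the highest such peak. Distal peaks lie in the body with 50 kb flanks. Reads were not split by parental allele. Motifs were matched in footprints extended by 5 bp.

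Depth is not stated; the median smaller-list peak had 120 steps in replicate 1 and 122 in replicate 2. The members, lists and motifs were chosen with earlier results of these data known. Named genes were the members, genes with start-site peaks in their windows, the highest 2 of each related list and the 2 nearest by likeness; single markers were named after their values were seen. A few genes taken by this rule are left out of the text. No condition was compared, so values carry no test. Alternatives were the larger lists, other windows and overlaps, the stronger peaks and each library alone.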

Additional observations from a re-analysis of the deposited data

How the results depend on the processing

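Of 64 alternative values for 11 results, 51 stayed within 1.5 times the count or 1 SD of the value reported and 13 did not. With 2 libraries, each lies less than 1 SD from their mean. The promoter signal of 1 library alone thus could not have moved, and the distal signals, as geometric means, hardly could. The number of transporter genes with a promoter peak, 1, was 2 with the larger lists. The shared distal peaks of Slc17a6, 1, were 6 with the larger lists, 3 with 100 kb flanks, 0 at a reciprocal overlap of 50% and 0 in the stronger 50% of peaks. Those of Slc17a7, 3, were 5 with 100 kb flanks and 0 in the gene body alone. Those of Slc17a8, 4, were 1 in the gene body alone and 1 in the stronger 50% of peaks. With 1 library left out, distal peaks ranged from 1 to 4 at Slc17a6, and promoter footprints from 3 to 10 at Slc17a6 and from 0 to 1 at Slc17a7. The distal signal of Slc17a8, 0.707, was 0.673 as a median of the linear signal. Except where fewer peaks or bases entered, the cause was not tested. No paired analysis was possible because the 2 libraries form 1 group. Slc17a6 rests on peaks of 40 to 105 steps.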
